A study of Mus musculus with 6 samples.

Results

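The 38 mouse genes described here carry cells into and out of mitosis: mitotic cyclins and their kinase, the switch that turns that kinase on, mitotic kinases, the ubiquitin ligase machinery of mitotic exit, condensin and cytokinesis proteins. They were taken by gene name from a table of 18908 genes, and all 38 had a row. The 3 VprBP-labelled libraries came from cells given an shRNA against VprBP (genotype label VprBP1 Knockdown), and the 3 control-labelled libraries from cells given a control shRNA (genotype label WT). Both are labelled as bone marrow-derived macrophages, cells grown from marrow precursors. Small hairpin RNAs (shRNA) are used to reduce a chosen transcript, and VprBP, now called Dcaf1, is a substrate receptor of a cullin ubiquitin ligase. The study's title concerns osteoclast differentiation. Mouse strain, age, sex and the way the hairpins were delivered are not given in the labels. Whether libraries of 1 group stem from different mice or cultures is not labelled either, so the p-values reflect the spread among these 6 libraries, which may be technical.

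In a dividing cell, CDK1 bound to cyclin A or cyclin B drives entry into mitosis once CDC25 phosphatases remove the phosphates that WEE1 and MYT1 place on it. Exit follows when the anaphase-promoting complex (APC/C), a ubiquitin ligase, acts first with CDC20 and later with CDH1 to mark cyclin B and securin for destruction. Many of these genes are transcribed late in the cell cycle from promoters that hold a short element called CHR and CCAAT boxes, on which the MuvB complex with B-MYB and FOXM1, and the factor NF-Y, act. Marrow precursors divide while they are given growth factor and largely stop as they mature into macrophages.

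Several facts of the whole series touch every comparison below. Dcaf1, the targeted gene, was measured at 35.96, 34.6 and 36.8 CPM in VprBP-labelled libraries, against 42.2, 43.5 and 40.7 CPM in control-labelled libraries (CPM, counts scaled to the library total and between libraries). Its log2 difference of -0.24 (SE 0.07, edgeR adjusted p = 0.00625) was -0.12 and no longer called with scaling by library size alone (edgeR adjusted p = 0.137), so each direction below is a direction between labels. Only 6 of 20 macrophage markers had a row, and these summed to 20.2 to 21.1 CPM in the VprBP-labelled libraries and 37.3 to 40.6 CPM in the control-labelled libraries. The sum rested mostly on Mertk, at a mean of 13.3 CPM in VprBP-labelled and 5.35 CPM in control-labelled libraries, and on Cd68, at 1.01 CPM in VprBP-labelled and 31.6 CPM in control-labelled libraries. Csf1r, Adgre1, Itgam, Spi1 and Ptprc were among the 14 without a row, and no gene with under 10 counts over all 6 libraries has a row. All 12 pigment cell markers had a row and summed to 19881 to 20389 CPM in the VprBP-labelled and 21175 to 21552 CPM in the control-labelled libraries. Of these 12, 6 were called higher, up to 5.702-fold for Rab38, and 5 lower, up to 4.29-fold for Gpr143. Of all tested genes, 37.9% were called higher and 37% lower. Pmel, at 2505 CPM in VprBP-labelled and 6971 CPM in control-labelled libraries, was 2.78-fold lower. The defining markers of macrophages were thus absent or scarce, while the summed pigment cell transcripts were abundant in every library. These markers do not match the labelled cell type, so the background on marrow precursors given above may not apply. Of 8 stromal markers 7 had a row, with a sum of 367 to 420 CPM in the VprBP-labelled and 47.3 to 50.3 CPM in the control-labelled libraries. Col1a1 held most of the VprBP-labelled sum, at a mean of 302 CPM, against 14.9 CPM in control-labelled libraries. Of the 6 stromal markers tested, 5 were called higher and 1, Dcn, lower (37.9% and 37% of all tested genes). Neutrophil, lymphocyte and erythroid markers, with a row for 1 of 8, 1 of 8 and 4 of 6, summed to at most 0.239, 2.10 and 3.30 CPM in any library. Mitochondrial transcripts took 4.89% to 5.56% of the counts in the VprBP-labelled and 8.65% to 9.48% in the control-labelled libraries. The part of these differences in the results below was not tested. Total counts per library ranged from 16839445 to 21838875.

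As a group, the mitotic genes were far higher in the VprBP-labelled libraries. Of the 38, 34 were called higher, 2 lower (Ccnf and Cdc25a) and 2 were not called (Mybl2 and Pttg1), at an edgeR adjusted p below 0.05. Of all 14641 genes tested, 37.9% were called higher and 37% lower. The median log2 difference of the 38 was 2.69, and that of all tested genes was -0.01. A log2 difference above 2 was found for 28 of the 38, against 8.74% of all tested genes, and above 3 for 16, against 4.26%. The VprBP-labelled values did not overlap the control-labelled values for 36 members, against 77.2% of all tested genes. Summed over the 38, the level was 2475, 2505 and 2569 CPM in VprBP-labelled libraries, against 579.7, 589 and 582 CPM in control-labelled ones, a ratio of 4.31. In bulk RNA a larger share of dividing cells and more transcript per dividing cell cannot be told apart. All 38 passed the filter on low counts, and 37 would have passed on the control-labelled libraries alone.

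**Figure D1:**
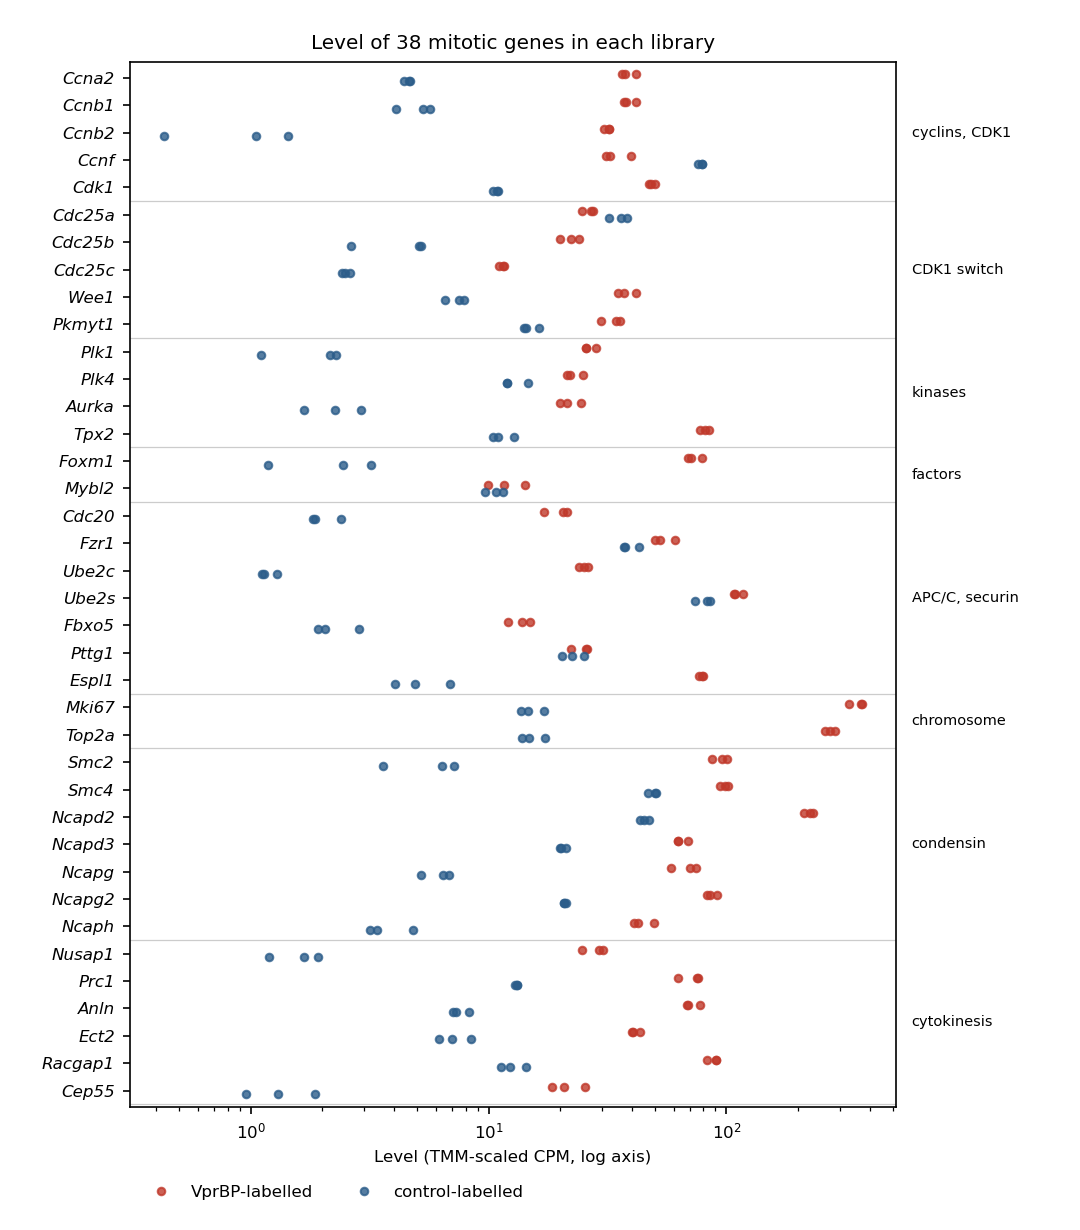
Level of each of the 38 genes in every library, as TMM-scaled CPM on a log axis. Each point is a library, red for VprBP-labelled and blue for control-labelled. The red points lie to the right of the blue ones for 34 genes, to the left for Ccnf and Cdc25a, and among them for Mybl2 and Pttg1.

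Promoter letters were described because many genes of mitosis hold CHR and CCAAT in their promoters. The members were chosen as genes of mitosis, so their share with these letters is a property of the list. It does not bear on the difference between the labels. RefSeq starts on build GRCm38.p6 were found by symbol for 31 of the 38, and the 250 bases before each start were searched on both strands for the CHR letters TTTGAA or TTCGAA and for CCAAT. Matches were counted also where they shared bases. CHR letters stood before 17 of the 31 members (54.8%), against 14.8% of 10446 tested genes with a promoter. CCAAT stood before 21 of the 31 (67.7%), against 40.9%, and both stood before 13 (41.9%), against 6.998%. Within 50 bases of the start, a limit chosen after the positions were seen, CHR letters stood before 10 of the 31 (32.3%), against 2.13%. These 10 were Ccnf, Cdc20, Cdk1, Cep55, Espl1, Ncapg, Ncapg2, Prc1, Top2a and Ube2c. A match describes letters and is not a binding site.

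Promoter sequences are shown for the 3 members with the largest and the 3 with the smallest log2 difference among those whose CHR letters lie outside annotated exons. They run 5′ to 3′ toward the start on the strand of the gene, with CHR and CCAAT letters, read on either strand, in capitals. All 6 lie on the minus strand. The first 3, from Ccnb2 at chr9:70421555-70421804, Mki67 at chr7:135716380-135716629 and Top2a at chr11:99024190-99024439, belong to genes with log2 differences of 4.99, 4.55 and 4.16.
Ccnb2: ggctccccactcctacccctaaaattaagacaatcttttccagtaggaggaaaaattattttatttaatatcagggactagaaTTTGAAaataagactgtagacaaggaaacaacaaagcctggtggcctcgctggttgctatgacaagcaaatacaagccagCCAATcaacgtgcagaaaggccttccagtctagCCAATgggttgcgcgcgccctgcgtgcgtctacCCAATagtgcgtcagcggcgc
Mki67: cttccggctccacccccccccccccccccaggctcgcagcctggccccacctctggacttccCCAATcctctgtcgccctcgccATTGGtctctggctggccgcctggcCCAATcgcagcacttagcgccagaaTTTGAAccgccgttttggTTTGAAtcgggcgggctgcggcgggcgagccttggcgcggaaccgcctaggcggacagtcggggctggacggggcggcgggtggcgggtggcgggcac
Top2a: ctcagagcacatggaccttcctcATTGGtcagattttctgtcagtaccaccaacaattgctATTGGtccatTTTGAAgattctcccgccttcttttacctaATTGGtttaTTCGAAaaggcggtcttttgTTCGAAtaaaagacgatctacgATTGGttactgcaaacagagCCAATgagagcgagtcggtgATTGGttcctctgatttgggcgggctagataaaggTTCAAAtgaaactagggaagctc
The other 3, from Cdc20 at chr4:118437353-118437593, Cdk1 at chr10:69352939-69353162 and Ccnf at chr17:24251485-24251659, belong to genes with log2 differences of 3.29, 2.18 and -1.18. The 9, 26 and 75 bases nearest the start are left out because they lie in an annotated exon.
Cdc20: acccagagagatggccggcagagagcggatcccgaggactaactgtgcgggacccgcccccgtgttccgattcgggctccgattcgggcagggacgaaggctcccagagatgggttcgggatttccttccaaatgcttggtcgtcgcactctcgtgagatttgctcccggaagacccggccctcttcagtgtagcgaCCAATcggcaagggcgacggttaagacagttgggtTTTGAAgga
Cdk1: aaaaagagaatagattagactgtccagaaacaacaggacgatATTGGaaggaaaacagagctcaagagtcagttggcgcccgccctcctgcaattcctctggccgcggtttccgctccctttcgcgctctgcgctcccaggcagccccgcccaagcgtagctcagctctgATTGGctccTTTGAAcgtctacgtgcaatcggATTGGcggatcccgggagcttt
Ccnf: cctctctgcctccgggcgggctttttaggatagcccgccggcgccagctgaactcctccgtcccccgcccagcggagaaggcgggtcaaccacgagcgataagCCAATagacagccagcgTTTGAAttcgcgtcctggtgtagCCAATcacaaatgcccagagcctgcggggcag
In Ccnb2 the 3 CCAAT words began 87, 54 and 21 bases before the start, and the CHR letters 167 bases before it. Top2a held 4 CHR and 6 CCAAT words. Ccnf, a member that was lower in the VprBP-labelled libraries, held both words, as did 12 of the members that were higher, with CHR letters beginning 130 and 14 bases and CCAAT 147 and 107 bases before the start. Neither word stood in this window for 6 members: Mybl2 and Pttg1, which were not called, and Nusap1, Ncaph, Anln and Plk4, which were higher. Cdc25a, the other member that was lower, held CCAAT but no CHR letters. Among the 31, the median log2 difference was 3.29 for the 17 with CHR letters and 2.69 for the 14 without. Over all tested genes with a promoter, it was 0.06 for the 1541 with CHR letters and -0.004 for the 8905 without. Whether CHR letters go with a larger difference was not tested.

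**Figure D2:**
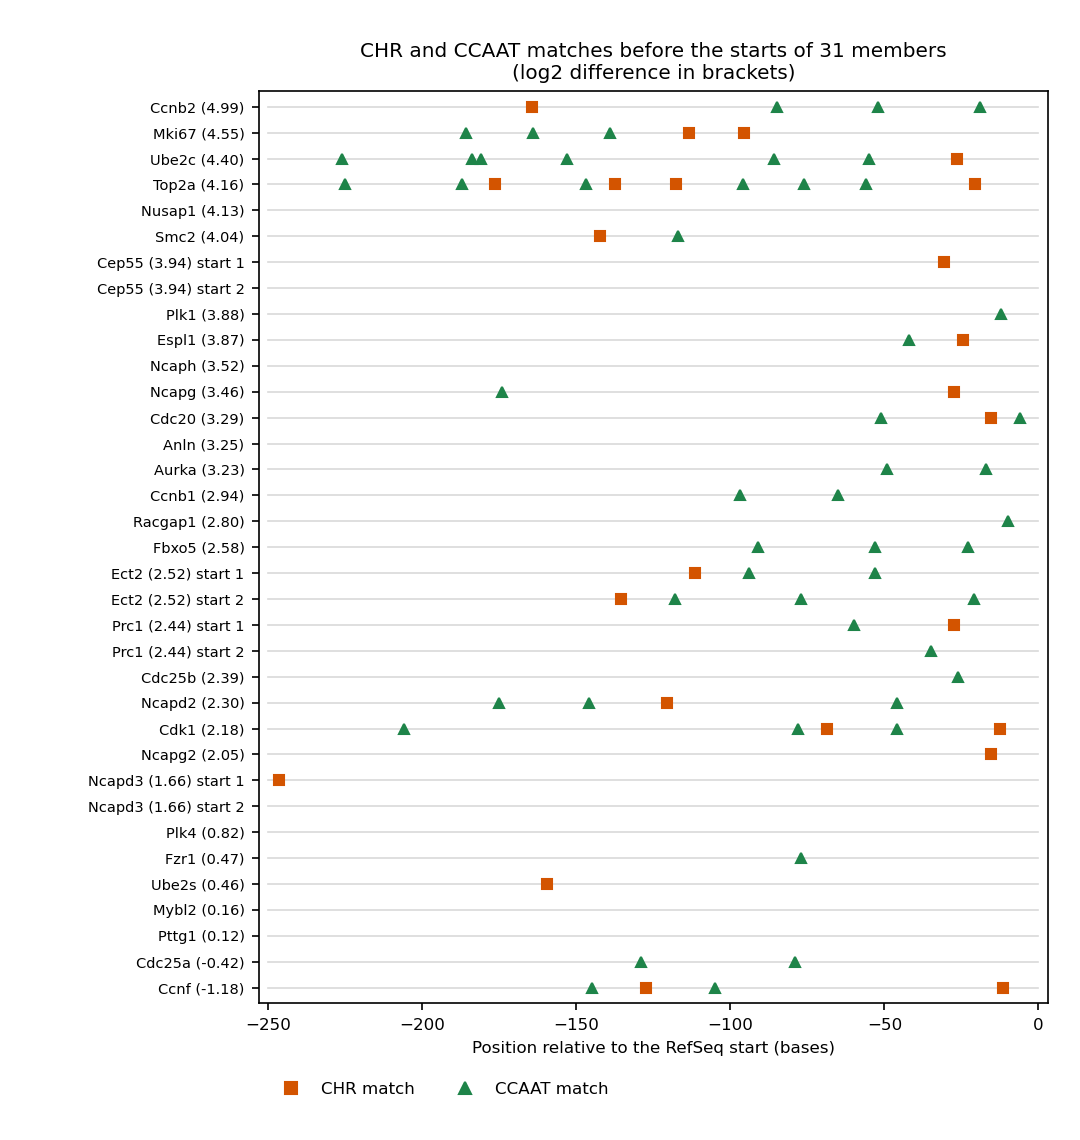
Positions of CHR (squares) and CCAAT (triangles) words in the 250 bases before each RefSeq start of 31 members, in bases from the start, with the gene's log2 difference in brackets and genes ordered by it. Starts of a gene with several are numbered, and Ccnf at the foot holds both words, as Cdk1 and Cdc20 do.

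Among the cyclins and their kinase, 4 of 5 genes were higher and 1 lower (37.9% and 37% of all tested genes). Ccnb2, cyclin B2 (ENSMUSG00000032218.7, chromosome 9, 70407692 to 70421547, minus strand, GRCm38), was measured at 32.1, 30.5 and 31.97 CPM in VprBP-labelled libraries, against 1.05, 0.434 and 1.43 CPM in control-labelled libraries, and it was 31.8-fold higher (95% interval 24.03 to 42.2). The groups stood far apart, and since the control-labelled libraries held as few as 7 counts this fold has a wide interval. Ccnb1, cyclin B1, the main partner of CDK1 in mitosis, had 41.5, 37.2 and 37.96 CPM in VprBP-labelled and 5.65, 4.09 and 5.31 CPM in control-labelled libraries and was 7.68-fold higher (95% interval 6.45 to 9.15). Ccna2, cyclin A2, which acts from DNA replication to early mitosis, had 36.5, 37.5 and 41.7 CPM in VprBP-labelled and 4.69, 4.65 and 4.42 CPM in control-labelled libraries and was 8.39-fold higher (95% interval 7.13 to 9.87). The kinase itself, Cdk1, was measured at 49.98, 48.3 and 47.2 CPM in VprBP-labelled libraries, against 10.8, 10.4 and 10.9 CPM in control-labelled libraries. It was 4.52-fold higher (95% interval 3.99 to 5.12), less than its cyclin partners, and each group was tight. Each of these 4 had an edgeR adjusted p of at most 1.45e-13.

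Ccnf (ENSMUSG00000072082.7, chromosome 17, 24222198 to 24251484, minus strand, GRCm38) was the member that fell most. It encodes cyclin F, an F-box protein that marks proteins such as the ribonucleotide reductase subunit RRM2 for destruction and does not activate a CDK. Ccnf was measured at 39.8, 32.4 and 31.2 CPM in VprBP-labelled libraries, against 75.9, 78.98 and 78.7 CPM in control-labelled libraries. All 3 VprBP-labelled libraries lay below all 3 control-labelled ones, and Ccnf was 2.26-fold lower (95% interval 2.01 to 2.54), with edgeR adjusted p = 2.59e-10. Per kilobase of annotated exon it was the lowest of the 5 genes of this class in VprBP-labelled libraries, at 4.42 ± 0.595 CPM per kilobase, and the highest in control-labelled libraries, at 9.98 ± 0.220 CPM per kilobase (SD, n = 3).

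The switch on CDK1 moved on both sides. Its activators were split: Cdc25b had 24.05, 20.04 and 22.3 CPM in VprBP-labelled and 2.63, 5.08 and 5.19 CPM in control-labelled libraries and was 5.23-fold higher (95% interval 3.998 to 6.84), and Cdc25c had 11.5, 11.7 and 11.1 CPM in VprBP-labelled and 2.49, 2.42 and 2.63 CPM in control-labelled libraries and was 4.54-fold higher (95% interval 3.52 to 5.85). Cdc25a, the phosphatase that acts also at entry into DNA replication, was measured at 27.4, 24.6 and 27.1 CPM in VprBP-labelled libraries, against 31.97, 38.03 and 35.998 CPM in control-labelled libraries. The groups did not overlap and Cdc25a was 1.34-fold lower (95% interval 1.18 to 1.52), a small fall with edgeR adjusted p = 0.000308. The opposing kinases were higher too. Wee1 had 41.8, 37.2 and 34.9 CPM in VprBP-labelled and 7.85, 6.57 and 7.52 CPM in control-labelled libraries and was 5.17-fold higher (95% interval 4.401 to 6.07), and Pkmyt1, which encodes MYT1, had 34.5, 29.8 and 35.9 CPM in VprBP-labelled and 14.1, 14.4 and 16.4 CPM in control-labelled libraries and was 2.23-fold higher (95% interval 1.93 to 2.59). The 4 genes of this switch that rose had edgeR adjusted p-values of at most 8.39e-09.

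All 4 genes of the mitotic kinases were higher (37.9% of all tested genes). Plk1, the polo-like kinase of mitotic entry and spindle assembly, was measured at 28.3, 25.7 and 25.7 CPM in VprBP-labelled libraries, against 1.101, 2.29 and 2.15 CPM in control-labelled libraries, and was 14.7-fold higher (95% interval 11.3 to 19.2). Plk4, a relative that governs the copying of centrioles, had 22.1, 24.9 and 21.4 CPM in VprBP-labelled and 14.6, 11.96 and 11.9 CPM in control-labelled libraries and was 1.77-fold higher (95% interval 1.497 to 2.09). Both rose, and their intervals do not meet. Aurka, the Aurora kinase of centrosomes and spindle poles, had 19.9, 21.3 and 24.5 CPM in VprBP-labelled and 2.92, 1.67 and 2.27 CPM in control-labelled libraries and was 9.39-fold higher (95% interval 7.29 to 12.1). Tpx2, the spindle protein that activates it, had 77.3, 81.01 and 84.3 CPM in VprBP-labelled and 11.01, 10.5 and 12.8 CPM in control-labelled libraries and was 7.09-fold higher (95% interval 6.27 to 8.01). The largest edgeR adjusted p of the 4 was 3.67e-06, that of Plk4.

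The 2 transcription factors of this program differed from each other. Foxm1, the forkhead factor of late cell cycle genes (ENSMUSG00000001517.14, chromosome 6, 128362967 to 128376146, plus strand, GRCm38), was measured at 79.1, 71.1 and 69.1 CPM in VprBP-labelled libraries, against 3.21, 1.18 and 2.45 CPM in control-labelled libraries. It was 31.03-fold higher (95% interval 24.7 to 39), with edgeR adjusted p = 4.6e-15, among the largest changes of the 38. Mybl2, which encodes B-MYB, was measured at 11.6, 9.94 and 14.2 CPM in VprBP-labelled libraries, against 11.5, 10.7 and 9.67 CPM in control-labelled libraries. These values overlapped, and the log2 difference of 0.16 was not called (edgeR adjusted p = 0.327), with a 95% interval of the fold from 0.902 to 1.39. Per kilobase of annotated exon, Foxm1 stood above Mybl2 in VprBP-labelled libraries (12.7 and 2.57 CPM per kilobase) and below it in control-labelled libraries (0.396 and 2.29 CPM per kilobase).

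Of the 7 genes of APC/C regulation, securin and separase, 6 were higher (37.9% of all tested genes) and 1 was not called. Cdc20, the coactivator of early mitosis, was measured at 21.4, 17.1 and 20.6 CPM in VprBP-labelled libraries, against 1.82, 1.86 and 2.39 CPM in control-labelled libraries, and was 9.77-fold higher (95% interval 7.62 to 12.5). Fzr1, which encodes CDH1, the coactivator of late mitosis and of resting cells, had 60.7, 50.3 and 52.7 CPM in VprBP-labelled and 42.8, 37.3 and 37.5 CPM in control-labelled libraries. It was 1.39-fold higher (95% interval 1.23 to 1.56), with edgeR adjusted p = 4.8e-05, a far smaller rise than that of Cdc20. The ubiquitin-conjugating enzymes that work with APC/C were alike unequal. Ube2c, which starts the ubiquitin chain, was measured at 24.1, 25.2 and 26.3 CPM in VprBP-labelled libraries, against 1.29, 1.12 and 1.13 CPM in control-labelled libraries, and was 21.1-fold higher (95% interval 16.8 to 26.5). Ube2s, which extends the chain, had 117, 108 and 109 CPM in VprBP-labelled and 73.8, 83.3 and 85.7 CPM in control-labelled libraries and was 1.38-fold higher (95% interval 1.26 to 1.51). Of the exon bases of Ube2s, 3.56% are shared with Rpl28 on the opposite strand, where reads of the pair cannot be told apart, since no strand setting is stated.

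Fbxo5, which encodes EMI1, an inhibitor of APC/C, was measured at 12.02, 14.96 and 13.8 CPM in VprBP-labelled libraries, against 2.06, 1.92 and 2.87 CPM in control-labelled libraries, and was 5.97-fold higher (95% interval 4.53 to 7.86). Espl1, separase, the protease that cuts cohesin at anaphase, had 78.9, 79.7 and 77.1 CPM in VprBP-labelled and 6.89, 4.89 and 4.06 CPM in control-labelled libraries and was 14.6-fold higher (95% interval 12.3 to 17.3). Its inhibitor securin, Pttg1, had 22.2, 25.7 and 25.9 CPM in VprBP-labelled and 22.4, 25.2 and 20.3 CPM in control-labelled libraries. The Pttg1 values overlapped and the log2 difference of 0.12 was not called (edgeR adjusted p = 0.285), with a 95% interval of the fold from 0.938 to 1.26. Scaling by library size alone, which moved the median of all genes from -0.01 to 0.10, gave Pttg1 a log2 difference of 0.24 and an edgeR adjusted p of 0.0429. Per kilobase of annotated exon, separase and securin stood at 8.98 ± 0.154 and 12.3 ± 1.06 CPM per kilobase with the VprBP label. With the control label they stood at 0.604 ± 0.166 and 11.3 ± 1.22 CPM per kilobase (SD, n = 3). Securin thus stood above separase per length in both groups, also with the length of the longest transcript.

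Mki67 and Top2a held the most counts of the 38 in the VprBP-labelled libraries. Mki67 encodes Ki-67, which coats mitotic chromosomes and is used to mark dividing cells. It was measured at 329, 369 and 370.3 CPM in VprBP-labelled libraries, against 17.1, 14.7 and 13.7 CPM in control-labelled libraries. Top2a, the topoisomerase that untangles sister chromatids, was measured at 259, 272 and 287 CPM in VprBP-labelled libraries, against 13.9, 17.3 and 14.7 CPM in control-labelled libraries. They were 23.4-fold higher (95% interval 20.9 to 26.1) and 17.9-fold higher (95% interval 16.1 to 19.9). Mki67 and Top2a held 14.2% and 10.8% of the members' summed level in the VprBP-labelled libraries, against 2.60% and 2.62% in the control-labelled ones. In the control-labelled libraries the largest shares were those of Ube2s, 13.9%, and Ccnf, 13.4%, which held 4.43% and 1.37% in the VprBP-labelled ones.

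All 7 condensin genes were higher (37.9% of all tested genes). Condensin is the ring-shaped complex that compacts mitotic chromosomes. SMC2 and SMC4 form its arms in both condensin I (with NCAPD2, NCAPG and NCAPH) and condensin II (with NCAPD3, NCAPG2 and NCAPH2). Smc2 was measured at 87.3, 95.6 and 100.3 CPM in VprBP-labelled libraries, against 6.36, 7.19 and 3.58 CPM in control-labelled libraries, and was 16.4-fold higher (95% interval 13.6 to 19.96). Smc4 was measured at 93.7, 98.6 and 101 CPM in VprBP-labelled libraries, against 50.6, 49.99 and 46.7 CPM in control-labelled libraries, and was 1.99-fold higher (95% interval 1.82 to 2.17). The partners thus changed by unequal amounts, and per kilobase of annotated exon their values overlapped in VprBP-labelled libraries and lay apart in control-labelled ones. In VprBP-labelled libraries Smc2 had 17.2 ± 1.2 and Smc4 18.8 ± 0.749 CPM per kilobase, and in control-labelled libraries Smc2 had 1.04 ± 0.345 and Smc4 9.43 ± 0.400 CPM per kilobase (SD, n = 3). With the length of the longest transcript in place of all exons, Smc2 and Smc4 stood at 17.5 ± 1.22 and 22.7 ± 0.905 CPM per kilobase in VprBP-labelled libraries, which no longer overlapped, and at 1.06 ± 0.350 and 11.4 ± 0.483 CPM per kilobase in control-labelled libraries.

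Each subunit particular to condensin I had a larger fold than each particular to condensin II, though the intervals of Ncapd2 and Ncapg2 overlapped. Ncapg had 58.7, 74.4 and 70.2 CPM in VprBP-labelled and 6.41, 6.81 and 5.19 CPM in control-labelled libraries and was 11.01-fold higher (95% interval 9.32 to 13.01), and Ncaph had 42.6, 41.05 and 49.5 CPM in VprBP-labelled and 4.83, 3.41 and 3.16 CPM in control-labelled libraries and was 11.5-fold higher (95% interval 9.404 to 14.01). Ncapd2 had 232, 212 and 224 CPM in VprBP-labelled and 45.1, 43.2 and 47.2 CPM in control-labelled libraries and was 4.94-fold higher (95% interval 4.55 to 5.36). Of condensin II, Ncapg2 had 84.97, 91.1 and 82.6 CPM in VprBP-labelled and 20.8, 20.7 and 21.1 CPM in control-labelled libraries and was 4.14-fold higher (95% interval 3.74 to 4.58), and Ncapd3 had 68.7, 62.3 and 62.7 CPM in VprBP-labelled and 20.2, 21.2 and 20.1 CPM in control-labelled libraries and was 3.15-fold higher (95% interval 2.83 to 3.52). Ncaph2, named here because it completes condensin II and not one of the 38, had 148, 134 and 140.4 CPM in VprBP-labelled and 121, 116 and 118 CPM in control-labelled libraries and was 1.19-fold higher (95% interval 1.104 to 1.28). The 8 condensin genes therefore ranged from 1.19-fold to 16.4-fold higher, with Ncaph2 and Smc4 at the low end.

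All 6 genes of spindle bundling and cytokinesis were higher (37.9% of all tested genes), and their log2 differences spanned 2.44 to 4.13. Nusap1, which links microtubules to chromosomes, was measured at 24.7, 29.3 and 30.2 CPM in VprBP-labelled libraries, against 1.67, 1.92 and 1.19 CPM in control-labelled libraries, and was 17.5-fold higher (95% interval 13.8 to 22.3). Cep55, which recruits the abscission machinery to the midbody, had 18.5, 20.7 and 25.4 CPM in VprBP-labelled and 1.87, 1.301 and 0.955 CPM in control-labelled libraries and was 15.3-fold higher (95% interval 11.4 to 20.6). These 2 had the largest log2 differences of the class. Anln, anillin, which ties the contractile ring to the membrane, had 68.4, 77.6 and 68.8 CPM in VprBP-labelled and 7.08, 8.24 and 7.28 CPM in control-labelled libraries and was 9.53-fold higher (95% interval 8.33 to 10.9). Racgap1, the centralspindlin subunit that activates ECT2, had 90.4, 82.7 and 90.4 CPM in VprBP-labelled and 11.2, 12.3 and 14.3 CPM in control-labelled libraries and was 6.98-fold higher (95% interval 6.16 to 7.92). Ect2, the exchange factor that turns on RhoA at the cell equator, had 40.3, 40.1 and 43.3 CPM in VprBP-labelled and 6.99, 8.42 and 6.21 CPM in control-labelled libraries and was 5.74-fold higher (95% interval 4.89 to 6.73), and Prc1, which bundles the central spindle, had 62.9, 75.02 and 75.8 CPM in VprBP-labelled and 13.1, 13.2 and 12.95 CPM in control-labelled libraries and was 5.44-fold higher (95% interval 4.78 to 6.19). The groups did not overlap for any gene of this class, as was so for 77.2% of all tested genes.

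**Figure D3:**
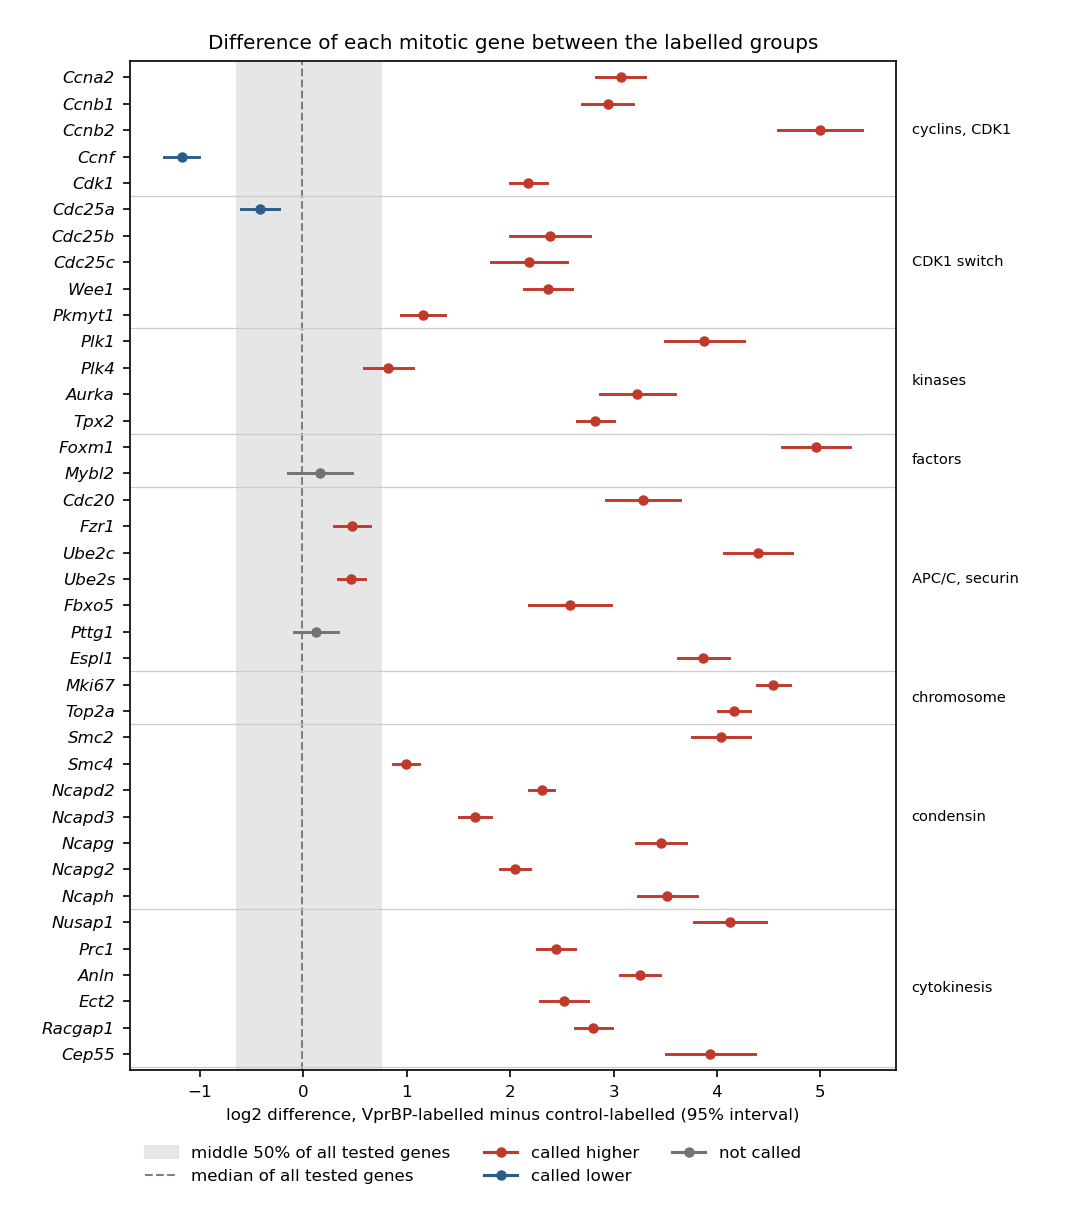
Difference between the labelled groups for each of the 38 genes, as log2 of VprBP-labelled over control-labelled, with its 95% interval from edgeR. The dashed line is the median of all tested genes, -0.01, and the grey band spans their middle 50%, from -0.64 to 0.75. Most members lie right of the band, and Ccnf lies left of it.

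Ratios between genes of opposed or alternative roles, taken within each library, show where members did not move in step. They are on the log2 scale (CPM + 0.5) and were tested by exact permutation, two-sided, whose smallest p with 3 libraries against 3 is 0.1, adjusted by Benjamini-Hochberg over 7 ratios. The log2 ratio of Mybl2 over Foxm1 was -2.72, -2.78 and -2.24 in VprBP-labelled libraries, against 1.69, 2.74 and 1.79 in control-labelled libraries, a difference of -4.65. Plk1 over Plk4 stood at 0.22 ± 0.16 in VprBP-labelled and -2.54 ± 0.60 in control-labelled libraries, a difference of 2.76. Cdc20 over Fzr1 stood at -1.45 ± 0.10 in VprBP-labelled and -3.98 ± 0.25 in control-labelled libraries, a difference of 2.53 (SD, n = 3 each). Condensin I (Ncapd2, Ncapg and Ncaph) over condensin II (Ncapd3 and Ncapg2) stood at 0.23 ± 0.12 in VprBP-labelled and -0.96 ± 0.13 in control-labelled libraries, a difference of 1.19. Cdc25b and Cdc25c over Wee1 and Pkmyt1 stood at -1.13 ± 0.03 in VprBP-labelled and -1.55 ± 0.27 in control-labelled libraries, a difference of 0.42, which was 0.27 without control-labelled library 1. These 5 ratios did not overlap between the groups, and each had an exact p of 0.1, the smallest possible, and an adjusted p of 0.14.

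The other 2 ratios overlapped between the groups. Ccnb1 over Ccna2 was 0.18, -0.01 and -0.13 in VprBP-labelled and 0.24, -0.17 and 0.24 in control-labelled libraries (difference -0.09, exact permutation p = 0.6, adjusted p = 0.6). Tpx2 over Aurka stood at 1.87 ± 0.09 in VprBP-labelled and 2.12 ± 0.32 in control-labelled libraries (difference -0.25, exact permutation p = 0.4, adjusted p = 0.467). A p of this size does not show that the ratios are equal.

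**Figure D4:**
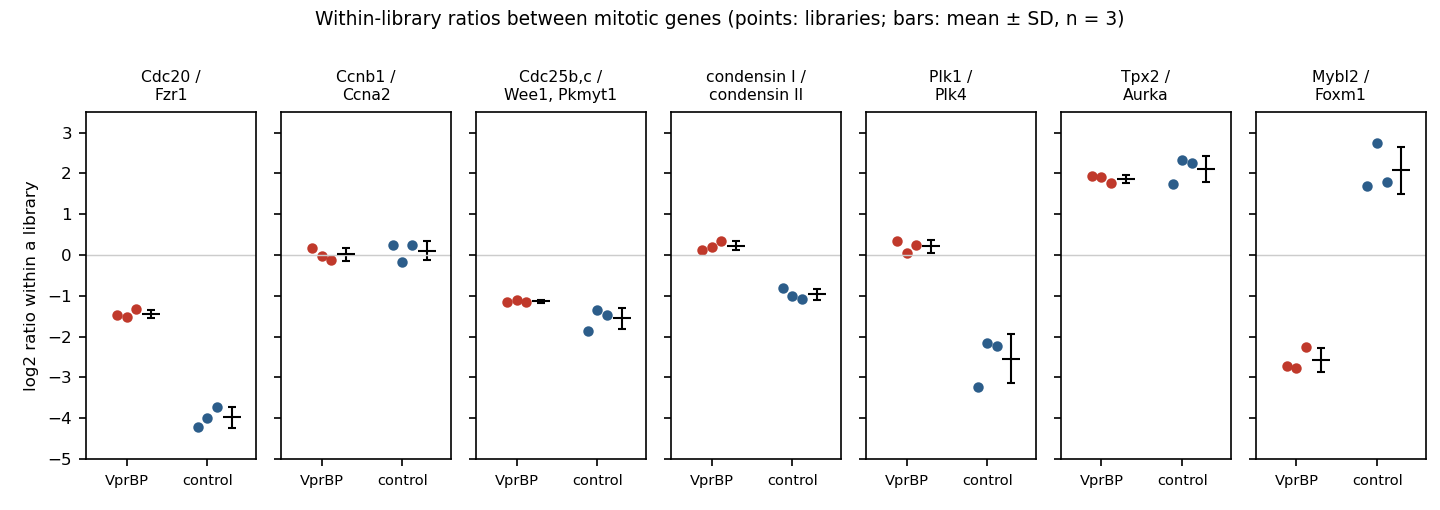
Log2 ratio between members within each library for 7 pairs of genes or gene groups, with VprBP-labelled libraries on the left of each panel and control-labelled libraries on the right. Points are libraries and bars the mean ± SD. The groups stand apart in 5 panels and overlap for Ccnb1 over Ccna2 and for Tpx2 over Aurka.

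Levels between genes can be compared only per length. Per kilobase of annotated exon, the highest members in the VprBP-labelled libraries were Ncapd2 at 35.6 ± 1.6, Mki67 at 35.4 ± 2.35 and Top2a at 30.2 ± 1.6 CPM per kilobase (SD, n = 3). Ncapd2 and Mki67 did not differ beyond their spread. Ube2s and Ccnb2 followed at 21.7 ± 0.998 and 20.6 ± 0.581 CPM per kilobase, and Mybl2 and Cdc25c stood lowest at 2.57 ± 0.462 and 2.32 ± 0.0655. In the control-labelled libraries the order was different. Ube2s led at 15.7 ± 1.22 CPM per kilobase, followed by Pttg1 at 11.3 ± 1.22, Ccnf at 9.98 ± 0.220, Smc4 at 9.43 ± 0.400 and Fzr1 at 8.74 ± 0.696. The exon bases that Ube2s shares with Rpl28 (3.56%) make its level and rank less certain. The libraries of Pttg1 lay just above those of Ccnf and those of Ccnf just above those of Smc4, and Smc4 and Fzr1 overlapped. Foxm1, at 12.7 ± 0.925 CPM per kilobase in VprBP-labelled and 0.396 ± 0.178 in control-labelled libraries, ranked 9 among the 38 in VprBP-labelled and 37 in control-labelled libraries. With the longest transcript as the length, Top2a led Ncapd2 and Mki67 in the VprBP-labelled libraries, and Ube2s still led in the control-labelled libraries, followed by Ccnf and Pttg1.

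Genes that work beside the members did not all follow them. Of 57 such genes in 6 lists, 29 were called higher, 17 lower and 11 were not called (37.9% of all tested genes were called higher and 37% lower), with a median log2 difference of 0.19. All 8 genes of the chromosomal passenger complex, centralspindlin and their partners were higher, with a median of 3.35. Aurkb, the Aurora kinase of that complex, had 34.9, 36.3 and 35.4 CPM in VprBP-labelled and 1.15, 0.929 and 0.955 CPM in control-labelled libraries and was 34.6-fold higher (95% interval 28.04 to 42.7), and Kif20a, a kinesin of the central spindle, had 42.5, 39.1 and 40.5 CPM in VprBP-labelled and 2.39, 2.42 and 2.45 CPM in control-labelled libraries and was 16.8-fold higher (95% interval 14.1 to 19.9).

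Of 14 core subunits of APC/C, 6 were higher, 4 lower and 4 not called, with a median of 0.17. Anapc5 had 316, 302 and 310.2 CPM in VprBP-labelled and 147, 151 and 138 CPM in control-labelled libraries and was 2.13-fold higher (95% interval 1.98 to 2.28), whereas Anapc16 had 16.9, 19.3 and 15.5 CPM in VprBP-labelled and 43.4, 40.7 and 43.04 CPM in control-labelled libraries and was 2.46-fold lower (95% interval 2.15 to 2.81). These counts are near the shares of all tested genes, 37.9% and 37%, and with scaling by library size alone they were 7 higher and 2 lower. Of 8 CDK1 partners and genes of the Greatwall pathway, which restrains the phosphatase PP2A in mitosis, 4 were higher, 3 lower and 1 not called (median 0.20). With so few genes, these counts too are near the shares of all tested genes. Only 2 were called higher without control-labelled library 3, and likewise with upper quartile scaling. Mastl, the Greatwall kinase, had 13.8, 16.04 and 17 CPM in VprBP-labelled and 1.44, 1.49 and 1.85 CPM in control-labelled libraries and was 9.82-fold higher (95% interval 7.51 to 12.8). Its targets Ensa and Arpp19 were 1.44-fold lower (95% interval 1.298 to 1.6) and 1.19-fold lower (95% interval 1.07 to 1.32). Of the 2 PP2A subunits in the list through which they act, Ppp2r2d was 1.36-fold lower (95% interval 1.2 to 1.54) and Ppp2r2a, at 105 CPM in VprBP-labelled and 94.99 CPM in control-labelled libraries, 1.102-fold higher (edgeR adjusted p = 0.0238). Cks2, a small CDK-binding protein, was not called (13.5 ± 1.71 CPM in VprBP-labelled and 11.3 ± 1.97 CPM in control-labelled libraries, edgeR adjusted p = 0.124).

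Of the 5 core subunits of MuvB, 1 was higher, 3 lower and 1 not called, with a median of -0.58. Of all tested genes, 37.9% were called higher and 37% lower. Lin52 had 6.47, 7.72 and 6.36 CPM in VprBP-labelled and 22.4, 24.6 and 23.998 CPM in control-labelled libraries and was 3.45-fold lower (95% interval 2.89 to 4.12). Lin37 was 2.18-fold lower (95% interval 1.81 to 2.63) and Lin54, the subunit that binds CHR letters, 1.497-fold lower (95% interval 1.21 to 1.85), while Rbbp4, which serves in many chromatin complexes, was 1.37-fold higher (95% interval 1.27 to 1.48). Lin9 was not called (13.4 ± 1.598 CPM in VprBP-labelled and 12.97 ± 2.16 CPM in control-labelled libraries, edgeR adjusted p = 0.766). The subunits other than Rbbp4 were lower or not called, but with so few genes these counts are not far from the shares of all tested genes. A link to the higher level of Foxm1 was not tested. Of 10 cohesin genes, with Ncaph2, 8 were higher, 1 lower and 1 not called (median 0.74), against the same 37.9% and 37% of all tested genes. The number lower was 2 with upper quartile scaling, without VprBP-labelled library 2 and without control-labelled library 2. Smc1a was 3.13-fold higher (95% interval 2.79 to 3.52) and Rad21, the subunit that separase cuts, 2.14-fold higher (95% interval 1.98 to 2.32). The loader Nipbl was 1.55-fold lower (95% interval 1.41 to 1.72), and the release factor Wapl was not called (93.5 ± 8.59 CPM in VprBP-labelled and 103 ± 6.12 CPM in control-labelled libraries, edgeR adjusted p = 0.072).

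Of 12 genes of abscission by the ESCRT machinery, which cuts the last bridge between daughter cells and also sorts membrane proteins in resting cells, 2 were higher, 6 lower and 4 not called (median -0.27). Among all tested genes, 37.9% were called higher and 37% lower. Chmp2a was 1.61-fold lower (95% interval 1.45 to 1.79) and Chmp4b 1.52-fold lower (95% interval 1.39 to 1.67). The 2 that were higher were Pdcd6ip, which encodes ALIX, 1.41-fold, and Chmp3, 1.14-fold. Cep55, which brings this machinery to the midbody, was 15.3-fold higher. Each call in these lists had an edgeR adjusted p below 0.05.

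**Figure D5:**
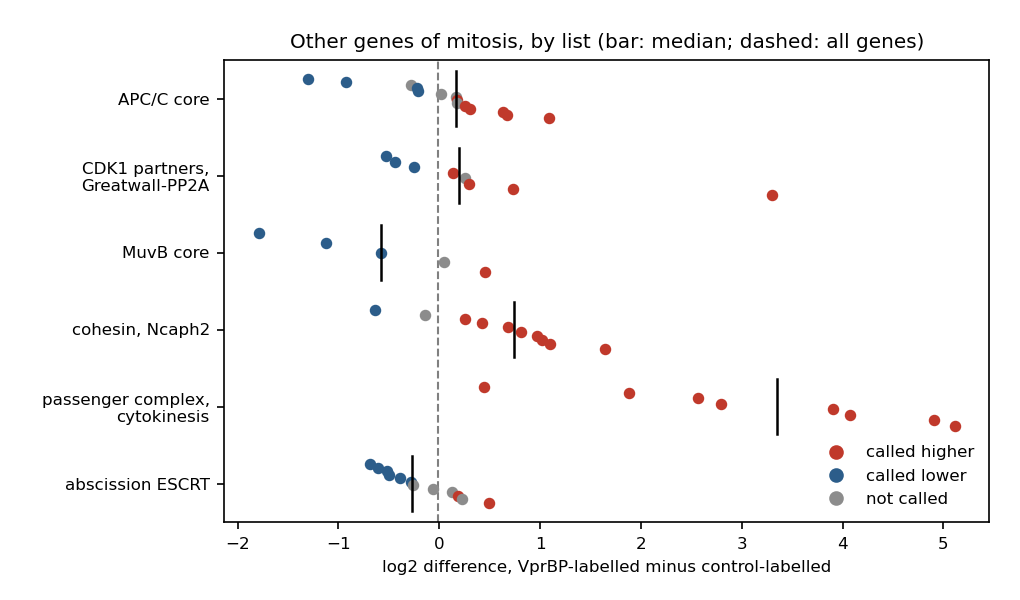
Log2 differences, VprBP-labelled minus control-labelled, of 57 other genes of mitosis in 6 lists. Each point is a gene, coloured by its call, bars are list medians, and the dashed line is the median of all tested genes, -0.01. The passenger complex list has the highest median, 3.35, and the MuvB list the lowest, -0.58.

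Reads of some members are less certain than others. Non-whole counts in all 6 libraries were found for Ccna2, Ccnb1, Pkmyt1, Plk1, Fbxo5, Ncapg and Prc1. Exon bases were shared with a listed gene for 10 members, at most 12.7% of them, for Cdc25c with Gm3550, and 12.5% for Ccna2 with Exosc9, both on the opposite strand. Of the members that fell or were not called, Ccnf, Cdc25a and Pttg1 had whole counts in every library and none of the 4 shared exon bases with a listed gene.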

How the data were processed

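Per the labels' protocols, total RNA (RNeasy) was turned into SMARTer mRNA-seq libraries. The authors deposited unscaled expected counts per gene. Per the submitters' processing notes, Partek and build mm10 were used. The sources used here give no aligner, counter, strand setting or annotation. Gene IDs were matched to GENCODE M21 (18501 of 18908, all with the same coordinates).

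Rounded counts went into edgeR 4.0.16 under R 4.3.3 (quasi-likelihood F test, TMM scaling, filterByExpr, group as the only term) for all 14641 genes passing the filter, with Benjamini-Hochberg adjustment. Folds and 95% intervals come from this fit. Alternatives included DESeq2 1.42.0. On simulated counts for 14641 genes, 35 of 50 genes changed 1.5-fold and 49 of 50 changed 2-fold were recovered. There 14441 genes were left unchanged, whereas 75% of all tested genes were called in the real libraries, so these rates may not hold for them. A count of 0 allows up to 0.137 to 0.178 CPM (3 counts), and such limits and all intervals cover counting error and library spread only. Every pair of libraries differed by more than counting noise.

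The members and gene lists were chosen with earlier results of these data known. All members were named, and in the other lists the 2 genes with the smallest p and any gene of a direction held by 3 or fewer. Ncaph2, Ppp2r2a, Cks2, Lin9, Wapl, the stromal genes and the pigment genes were named after their values were seen. Promoters came from RefSeq tables. The rule took the 3 largest and 3 smallest differences among members with CHR letters. Windows with no such letters outside annotated exons, and starts over 1 kb from the annotated gene start, were then passed over.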

Additional observations from a re-analysis of the deposited data

How the results depend on the processing

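Across 13 settings (3 other scalings, DESeq2, 2 other filters, a block for the replicate number, and leaving out each of the 6 libraries), 493 of 494 pairs of member and setting kept the direction and the call. The exception was Pttg1, called higher with scaling by library size alone. Members called higher numbered 34 or 35 and members called lower 2 in each setting. Same-numbered libraries of the groups deviated with correlations of -0.0324, 0.00664 and -0.0422, and not every library correlated best with its own number, so the numbers were not taken as pairs. With the replicate block the counts were 34 and 2, and no call among the 38 changed. The members' median log2 difference was 2.81 with scaling by library size alone, and ranged from 2.60 to 2.82 when a library was left out (2.60 without control-labelled library 1, 2.82 without control-labelled library 3). Dcaf1 was -0.12 and not called with scaling by library size alone. Leaving out a library gave differences of 2.41 to 2.66 for Cdc20 over Fzr1, 1.13 to 1.26 for condensin I over condensin II, 0.27 to 0.52 for Cdc25b and Cdc25c over Wee1 and Pkmyt1, 2.41 to 2.95 for Plk1 over Plk4 and -4.85 to -4.32 for Mybl2 over Foxm1. The other list genes gave 26 to 32 called higher and 14 to 18 lower over all settings. Of 76 levels per kilobase, 56 moved by more than 1 SD with the longest transcript as the length, so orders between genes per length are approximate. Depth limits the low control-labelled values, such as the 7 counts of Ccnb2 in control-labelled library 2. The causes of these shifts were not tested.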
